A study of Mus musculus with 2 samples.

Results

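Metallothioneins are small, cysteine-rich proteins that bind zinc and copper. Of the 31053 genes counted in the deposited single-cell matrices, the 3 taken here were Mt1, Mt2 and Mt4, each read from the feature row of its own identifier (ENSMUSG00000031765, ENSMUSG00000031762 and ENSMUSG00000031757). The data come from the back skin of 2 mice at postnatal day 53, a control and an animal in which miR-205 could be induced. Each gave 1 library, begun in telogen, the resting phase of the hair cycle. The paper describes follicles at this point of the induction as moving into anagen, the growth phase. It reports sporadic Ki67-positive hair germ cells in induced skin by then, so the hair cycle stage may differ between the mice. The inducible mouse carried the pTRE2-miR-205 transgene, made in FVB founders, together with Krt14-rtTA, a doxycycline-dependent activator driven by the keratin 14 promoter and therefore placed in epithelial cells. Both mice carried a K14-H2BGFP reporter allele, were listed under the strain C57BL/6, were matched for gender and were prepared side by side. Doxycycline chow was given for 4 days from day 49, to both mice per the extraction protocol, although the sample characteristics call the control untreated. Live cells were sorted so that epidermal, follicle and dermal cells entered at 3:5:2. The matrices hold no count of mature miR-205, so its induction was not checked here.

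Mt1 and Mt2 are the broadly expressed pair of the family. Their transcription is switched on by MTF1, a zinc-sensing factor that binds metal response elements in their promoters, and they also respond to glucocorticoids, oxidants and other stresses, so they act both as a zinc store and as a readout of the zinc and stress state of a cell. Mt4 is the form described in stratified squamous epithelium, including differentiating epidermis, and Mt3 is best known from the nervous system. In skin, zinc-binding metallothioneins have long been noted in basal keratinocytes and in the hair follicle.

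The 3 members lie in 1 cluster on chromosome 8, all on the plus strand. In build GRCm38.p6 the RefSeq gene records place the protein-coding genes Mt4 at chr8:94137204-94139031, Mt2 at chr8:94172618-94173567 and Mt1 at chr8:94178883-94180327. Mt3, at chr8:94152607-94154148, lies between Mt4 and Mt2. The promoters are printed because the members did not share a pattern across cell types, and the sequence in front of each gene is what a reader would set beside that. Each run is the 250 bases before the start used in the RefSeq promoter table (Mt1, chr8:94178839-94179088; Mt2, chr8:94172368-94172617; Mt4, chr8:94136954-94137203), and all 3 members matched. For Mt1 this start lies inside the gene record, which begins at chr8:94178883, so most of the window is gene sequence. The matches in the Mt1 window therefore do not describe the sequence in front of that gene and are not comparable with those of Mt2 and Mt4. Capitals mark the core of the metal response element, searched as TGCACNC or TGCGCNC on both strands.
Mt1: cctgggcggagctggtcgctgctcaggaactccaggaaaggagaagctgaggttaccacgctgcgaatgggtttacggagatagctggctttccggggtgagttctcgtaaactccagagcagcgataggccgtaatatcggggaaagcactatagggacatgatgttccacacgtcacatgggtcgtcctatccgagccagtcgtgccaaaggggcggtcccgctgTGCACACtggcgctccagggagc
Mt2: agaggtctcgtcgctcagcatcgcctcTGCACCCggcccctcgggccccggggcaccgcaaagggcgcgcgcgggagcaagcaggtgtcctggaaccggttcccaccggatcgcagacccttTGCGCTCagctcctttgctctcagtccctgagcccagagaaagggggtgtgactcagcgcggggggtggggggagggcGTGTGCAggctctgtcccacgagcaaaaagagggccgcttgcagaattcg
Mt4: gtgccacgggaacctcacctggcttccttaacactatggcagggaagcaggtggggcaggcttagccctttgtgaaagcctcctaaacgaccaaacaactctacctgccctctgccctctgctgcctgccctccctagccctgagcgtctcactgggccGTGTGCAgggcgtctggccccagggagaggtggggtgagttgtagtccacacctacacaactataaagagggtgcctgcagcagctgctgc
Mt2 held 3 cores and Mt4 held 1 on the minus strand. The Mt1 window held 1, ending 17 bases before the start used and inside the gene record. Among 32851 promoter windows of the same length, 21.4% held at least 1 core and 1.26% held at least 3, so a single core is a common match. The antioxidant response core TGACNNNGC matched 1 time in Mt2 and not in the other members, against 10.2% of windows. These matches describe letters and do not show that a factor was bound.

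The induced microRNA is printed because a direct target would carry the complement of its seed (bases 2 to 8, in capitals) in the 3′ UTR.
miR-205-5p: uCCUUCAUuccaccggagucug
The complement of this seed occurred 0 times in the 3′ UTRs of Mt1 (132 bases), Mt2 (140 bases) and Mt4 (164 bases) in an annotation on build NCBIM37. Of 43420 transcripts with a 3′ UTR there, 8.52% held it. The Mt1 and Mt2 coding sequences, of 186 bases each, were identical at 79.6% of positions, and the longest exact run shared by the transcripts was 20 bases. The corresponding run was 18 bases for Mt2 and Mt4 and 11 bases for Mt1 and Mt4.

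Whole-number counts of unique molecular identifiers (UMIs), each standing for 1 captured transcript end, totalled 55465594 over 4545 control barcodes and 49733560 over 4264 induced barcodes, and the libraries shared 11 barcodes. The filter of the study (over 200 and under 5000 genes, under 10% mitochondrial UMIs) kept 3936 control cells (86.6%) and 3628 induced cells (85.1%), with median depths of 12198.5 and 11752.5 UMIs. Cells were assigned to classes by UMIs of marker genes that include no metallothionein, and 15 classes with at least 50 cells in all and at least 20 in each library were compared. 1 of these, called ungated, holds the 1437 control and 1075 induced cells that met no rule. A level is the UMIs of a gene per 1000000 UMIs (CPM) of its class and library. A difference is the log2 ratio of induced over control CPM with an exact 95% interval, which covers counting error only. With 1 mouse per group there is no test of the treatment, and the mouse, the library and the induction cannot be told apart. Ratios past 1.5-fold are marked only as a rule of size.

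Mt1 was read in every class and Mt4 in essentially 1. Over all kept cells Mt1 reached 202490 UMIs in the control library and 199275 in the induced library, or 4005 and 4393 CPM. Mt2 stood at 1394 and 1468 CPM, and Mt4 at 34.4 and 30.6 CPM. Summed over the skin, then, the libraries differed little, with log2 ratios of 0.13 for Mt1, 0.07 for Mt2 and -0.17 for Mt4. The differences lay within cell classes.

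Mt1 spanned 7.45-fold across the 15 classes of the control library, from 778 CPM in Langerhans-like cells to 5795 CPM in fibroblast-like cells. In the induced library it spanned 21.7-fold, from 333 CPM in T cell-like cells to 7222 CPM in Lgr5+ Krt24- cells, a follicle class with at least 2 UMIs of Lgr5, a receptor of hair germ and bulge cells. By the mean of both libraries the highest classes were Lgr5+ Krt24-, fibroblast-like, ungated and interfollicular epidermis (IFE) basal-like cells, and the lowest were dermal papilla-like, Langerhans-like and T cell-like cells. Neighbours in this order had ranges over the 2 libraries that overlapped, apart from IFE suprabasal-like against upper follicle-like cells and upper follicle-like against dermal papilla-like cells. Mt2 spanned 11.1-fold in the control library and 13.0-fold in the induced library. Its highest control class was IFE basal-like cells at 2230 CPM and its lowest was Langerhans-like cells at 201 CPM. The order was not the same for both genes. Cycling cells stood 9th for Mt1 and 4th for Mt2, and the other antigen-presenting cells 6th and 11th, while dermal papilla-like, Langerhans-like and T cell-like cells were the lowest 3 for each.

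**Figure D1:**
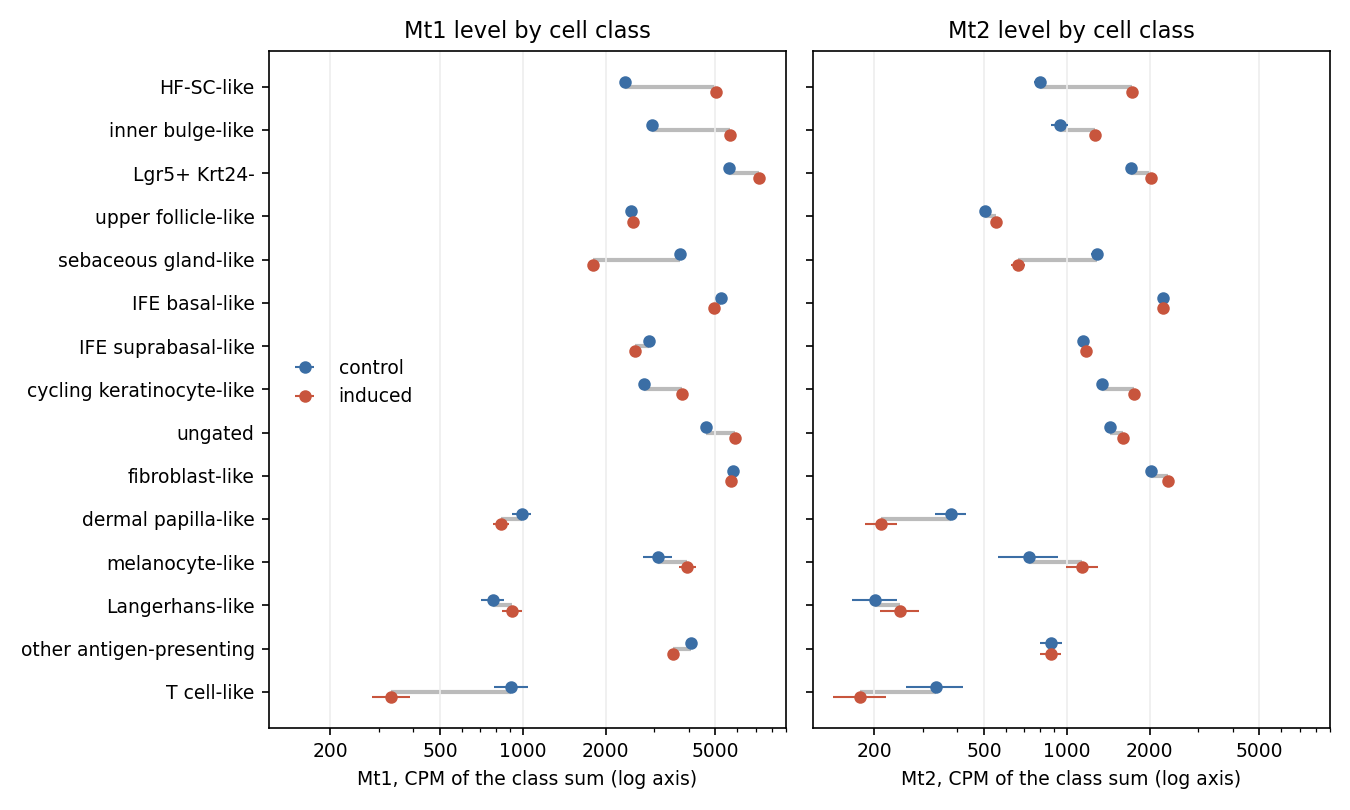
Mt1 (left) and Mt2 (right) levels in 15 skin cell classes, as CPM of the class sum on a log axis, with 1 point per library and exact 95% Poisson intervals as bars (counting error only). HF-SC-like cells moved from 2348 to 5046 CPM of Mt1, while sebaceous gland-like cells moved from 3721 to 1804 CPM.

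The class of cells resembling hair follicle stem cells (HF-SC-like) held cells with at least 2 UMIs of Krt24, or 1 with a UMI of Cd34, both marks of the bulge where these stem cells rest. All 6 bulge markers were raised at least 2-fold there over the other cells. Among these, Krt24 and Cd34 set the class, so their rise was built in. Mt1 gave 6044 UMIs in 247 control cells and 16634 UMIs in 315 induced cells, or 2348 CPM (2289 to 2408) against 5046 CPM (4970 to 5124). The induced level was 2.15-fold the control level, a log2 ratio of 1.10 (1.06 to 1.15). Mt2 gave 2048 and 5688 UMIs, or 796 and 1726 CPM, a log2 ratio of 1.12 (1.04 to 1.19). Both genes therefore moved by nearly the same factor, and their UMI ratio stood at 2.95 and 2.92. Mt4 had no UMI in this class in either library, which allows up to 1.21% of control and 0.962% of induced cells (thinned as below) to hold one.

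Among 9276 genes with at least 20 UMIs in HF-SC-like cells, 12.2% were past 1.5-fold upward. Among the 3252 genes with at least 200 UMIs, as Mt1 and Mt2 have, the share was 3.69%, and Mt2 ranked 13th and Mt1 14th from the highest ratio. The difference was spread over cells. Per 10000 UMIs, the median HF-SC-like cell held 6.10 Mt1 UMIs in the control library (quartiles 1.63 and 27.2) and 23.3 in the induced library (7.44 and 69.9). Cells without an Mt1 UMI numbered 32 of 247 and 6 of 315. After each cell was thinned to 2000 UMIs, 59.9% of control cells (53.5% to 66.1%) and 86.5% of induced cells (82.2% to 90.1%) held an Mt1 UMI, and without thinning the shares were 87.0% and 98.1%. For Mt2 the thinned shares were 47.8% and 66.3%. No class is known to lack Mt1, and T cell-like cells, the lowest class, held an Mt1 UMI in 33.3% and 20.3% of thinned cells, at median depths of 4470 and 5195 UMIs against 10094 and 10259 in HF-SC-like cells. The 5 highest cells held 16.6% of control and 8.97% of induced Mt1 UMIs, and the plot of cells shows the whole curve displaced.

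**Figure D2:**
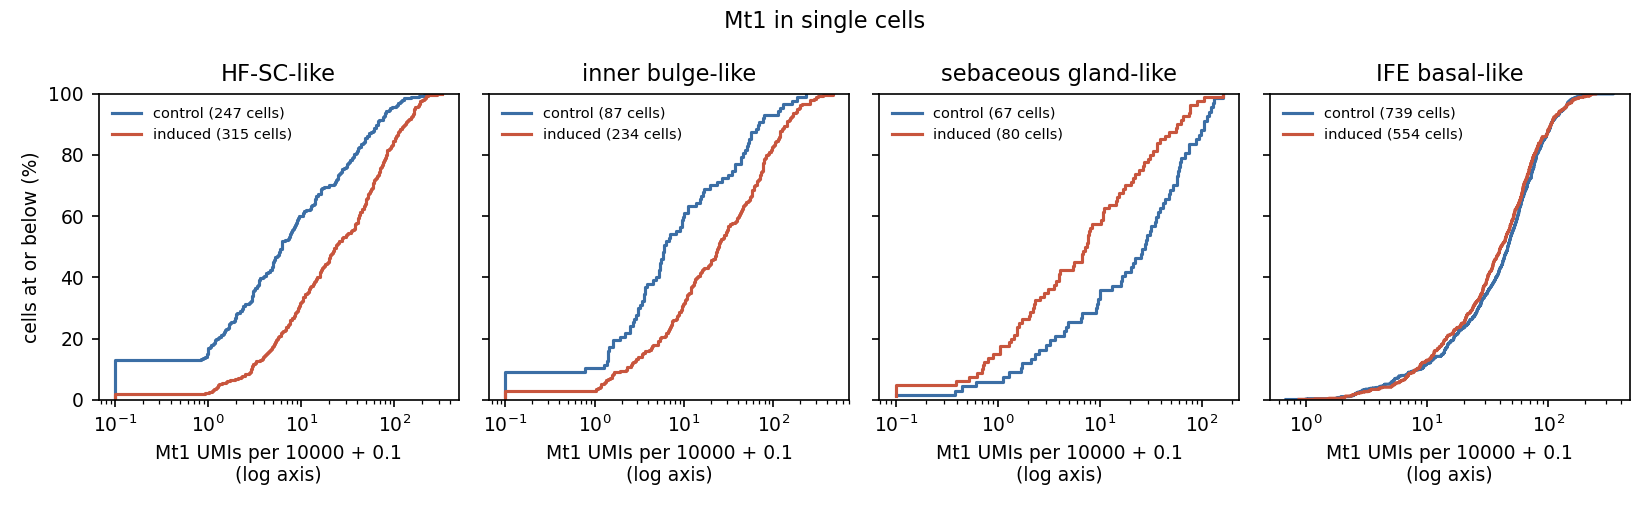
Cumulative share of cells against Mt1 UMIs per 10000 UMIs in 4 classes, with 1 curve per library. Medians stood at 6.10 and 23.3 in HF-SC-like cells, 5.88 and 24.2 in inner bulge-like cells, 28.0 and 7.23 in sebaceous gland-like cells, and 46.3 and 40.5 in IFE basal-like cells (control, then induced).

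Krt24 itself, which gates the class, was higher in the induced library, at 976 against 467 CPM. With cells taken instead by at least 3 UMIs of Cd34 and 20 of Krt15, a bulge keratin, 404 control and 622 induced cells gave Mt1 at 2215 and 4729 CPM (log2 1.09) and Mt2 at 713 and 1357 CPM (log2 0.93). Those of them with no Krt24 UMI gave 0.97 for Mt1 and 0.71 for Mt2. Within HF-SC-like cells, those with at most 5 Krt24 UMIs gave 1.14 and those with more gave 1.15 for Mt1, with 1.27 and 0.97 for Mt2. These groups were split by a cut and were not matched for Krt24 count, and the part of Krt24 in the ratios was not tested. A clustering made without the metallothioneins put 213 control and 244 induced cells of the class in 1 cluster, where the ratios were 1.32 for Mt1 and 1.28 for Mt2. A second cluster, with 19 and 42 cells, gave 0.51 and 0.66.

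The inner bulge-like class, set by Krt6a with Krt75 or Fgf18, was meant to cover the keratin 6-positive layer inside the bulge. Of its 5 listed markers 3 were raised at least 2-fold, and these were the genes that set the class. The others, Krt6b and Timp3, were not, so the markers give no separate check of the class. Mt1 stood at 2946 CPM in 87 control cells and 5667 CPM in 234 induced cells (log2 0.94, 0.88 to 1.01). The 5 highest control cells held 42.2% of the control Mt1 UMIs, and without the 5 highest cells of each library the ratio was 1.37. Here 10.9% of 7481 genes were past 1.5-fold upward, or 3.53% of the 1787 with at least 200 UMIs, among which Mt1 ranked 16th. Mt2 moved less, from 941 to 1261 CPM (log2 0.42, 0.30 to 0.54), and did not pass 1.5-fold. The Mt1 to Mt2 ratio was accordingly higher in the induced library, at 4.49 against 3.13. The class was of mixed make-up in the control, where 70.1% of its cells fell in 1 cluster against 91.0% in the induced library. Krt14 was also lower in the induced cells, at 1195 against 3268 CPM. Inside that cluster (61 and 213 cells) Mt1 stood at 1405 and 5301 CPM (log2 1.92) and Mt2 at 363 and 1001 CPM (log2 1.46), so both genes passed 1.5-fold there. With under 5% mitochondrial UMIs, which left 8 control and 27 induced cells, Mt1 gave 0.20.

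In the other follicle classes, taken whole, neither gene of the pair passed 1.5-fold. In Lgr5+ Krt24- cells 3 of 5 hair germ markers were raised, among them Lgr5, which sets the class. Mt1 stood there at 5583 CPM in 112 control cells and 7222 CPM in 116 induced cells (log2 0.37). Mt2 stood at 1713 and 2018 CPM (log2 0.24). The largest cluster of the class was not the same one in both libraries. The largest control cluster (66 and 38 cells) gave 0.48 for Mt1 and 0.24 for Mt2. In 1 smaller cluster (11 and 17 cells) Mt1 gave 1.16 and Mt2 0.82. Upper follicle-like cells, gated by Krt79 of the infundibulum and junctional zone, had 2472 CPM in 514 control cells and 2504 CPM in 438 induced cells (log2 0.02, -0.01 to 0.05). This class was uneven within each library. Its cells with at least 10 UMIs of the differentiation keratins Krt1 and Krt10 held 1528 and 1543 CPM of Mt1, against 2900 CPM in both libraries for the rest. Its largest cluster held 3490 and 3184 CPM, while a pair of further clusters held only 341 and 447 CPM and 450 and 607 CPM. Mt2 in this pair stood at 64.2 and 177 CPM (log2 1.47) and at 34.5 and 96.3 CPM (log2 1.48), past 1.5-fold upward at low levels.

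Sebaceous gland-like cells moved the other way. The class was set by lipid-synthesis genes such as Scd1, a fatty acid desaturase. All 7 of its markers were raised, but they are the same genes that set the class, so this is no separate check. Mt1 gave 4911 UMIs in 67 control cells and 3069 UMIs in 80 induced cells, or 3721 CPM (3618 to 3827) against 1804 CPM (1741 to 1869). The control level was 2.06-fold the induced level, a log2 ratio of -1.04 (-1.11 to -0.98). Mt2 stood at 1286 and 667 CPM, a log2 ratio of -0.95 (-1.06 to -0.84). Per 10000 UMIs the median cell held 28.0 Mt1 UMIs in the control library and 7.23 in the induced library, and an Mt1 UMI was found in 80.0% and 59.7% of thinned cells (98.5% and 95% unthinned). Of 7633 genes, 14.2% were past 1.5-fold downward, or 10.6% of the 1833 with at least 200 UMIs, where Mt1 ranked 69th and Mt2 87th from the lowest. The pair was therefore among many lower genes in this class.

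The sebaceous values moved with markers of other cells and with the filter. Krtdap and Sbsn, genes of differentiating epidermis that are not sebaceous markers, were also lower in the induced cells (log2 -4.79 and -1.47), and Scd1 was higher, at 5608 against 3160 CPM. Without the 8 control and 9 induced cells that held at least 10 Krtdap and Sbsn UMIs, the log2 ratio was -1.18 for Mt1 and -1.21 for Mt2. In the whole class these ratios were -1.04 and -0.95. Cells with so many held Mt1 at 2419 and 2346 CPM (log2 -0.04). Their Mt2 went the other way, at 536 and 1210 CPM (log2 1.17, 0.82 to 1.53, from 106 and 193 UMIs). The filter of the study, by gene number and mitochondrial share together, kept 67 of 128 control and 80 of 110 induced barcodes of the class. Over all barcodes the ratios were -0.54 for Mt1 and -0.35 for Mt2, both short of 1.5-fold. The part of these features in the result was not tested.

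**Figure D3:**
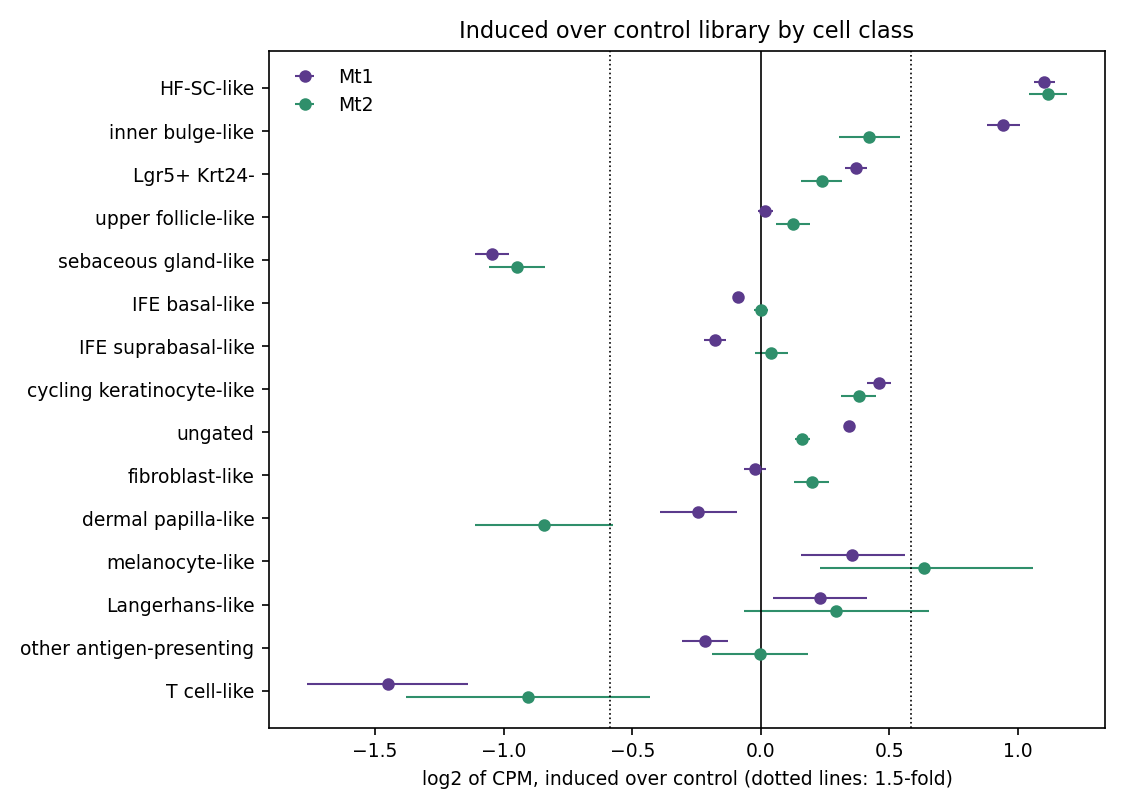
Log2 ratio of induced over control CPM for Mt1 and Mt2 in 15 classes, with exact 95% intervals as bars (counting error only, 1 library per group) and lines at 1.5-fold either way. HF-SC-like cells lie to the right at 1.10 and 1.12, and sebaceous gland-like cells to the left at -1.04 and -0.95.

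In the interfollicular epidermis, where basal keratinocytes are the classical site of metallothionein, both libraries were close in the basal and suprabasal classes taken whole. IFE basal-like cells, with at least 50 UMIs of Krt14 and Krt5 and 2 of Ly6a, had Mt1 at 5245 CPM in 739 control cells and 4927 CPM in 554 induced cells (log2 -0.09, -0.11 to -0.07). Mt2 was at 2230 CPM in both. No IFE basal-like cell lacked an Mt1 UMI, and 95.9% and 95.5% of thinned cells still held one. Cells of this class with at least 10 UMIs of Igfbp3 and Epgn held 5260 and 4650 CPM of Mt1, and those with fewer held 5222 and 5194 CPM. The largest cluster of the class (444 and 225 cells) gave log2 ratios of -0.26 for Mt1 and 0.01 for Mt2. A small cluster (13 and 26 cells) gave 1.49 and 1.22, both past 1.5-fold. IFE suprabasal-like cells, gated by at least 20 UMIs of Krt1 and Krt10, held less of both genes than basal cells in each library, with Mt1 at 2880 and 2548 CPM (log2 -0.18) and Mt2 at 1141 and 1175 CPM (log2 0.04). The largest suprabasal cluster (142 and 125 cells) gave -0.24 for Mt1 and 0.06 for Mt2. A cluster of 12 cells in each library gave 0.90 and 1.12, and another (13 and 14 cells) gave -0.72 and -1.26. Suprabasal cells without a Krt1 UMI (16 and 8) gave -1.84 and -1.29. Cycling keratinocyte-like cells had Mt1 at 2752 and 3789 CPM (log2 0.46, 0.41 to 0.51).

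Outside the epithelium, where the Krt14-rtTA driver is not placed, the summed Mt1 level of fibroblast-like cells was no lower than in basal keratinocytes. It stood at 5795 CPM in 116 control cells and 5707 CPM in 154 induced cells (log2 -0.02). The median fibroblast-like cell held less than the median IFE basal-like cell, at 38.0 and 24.8 against 46.3 and 40.5 Mt1 UMIs per 10000 UMIs. The 5 highest fibroblast-like cells held 22.1% of control and 20.7% of induced Mt1 UMIs. Mt2 in fibroblast-like cells stood at 2023 and 2321 CPM (log2 0.20). Dermal papilla-like cells, the signalling cells at the follicle base, were among the lowest. Of their 7 markers, which also set the class, Corin and Sox2 were the 2 not raised. Dermal papilla-like cells had Mt1 at 989 and 836 CPM and Mt2 at 379 and 212 CPM. The Mt2 log2 ratio of -0.84 (-1.11 to -0.57) passed 1.5-fold, as did 4.41% of 1178 genes with at least 200 UMIs. It rested on cells that carried keratinocyte RNA. Among the 110 control and 159 induced cells with under 10 UMIs of Krt14 and Krt5, Mt2 gave 73 and 163 UMIs, a log2 ratio of 0.37 (-0.04 to 0.79), and Mt1 gave 0.57.

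Cells that carried keratinocyte RNA also moved values in the immune and pigment classes, but not all in the same way. Mt1 in T cell-like cells stood at 909 CPM in 39 control cells and 333 CPM in 75 induced cells (log2 -1.45, -1.76 to -1.14), and Mt2 at 334 and 178 CPM (log2 -0.91). In this class 18.3% of 4318 genes were past 1.5-fold downward, and its largest cluster was not the same in both libraries, with 71.8% of control cells in one and 62.7% of induced cells in another. The 2 cells of each library that held at least 10 Krt14 and Krt5 UMIs carried 173 of 196 control and 104 of 155 induced Mt1 UMIs. Inside those clusters Mt1 stood at 126 and 120 CPM (28 cells each, log2 -0.08) and at 2314 and 426 CPM (10 and 47 cells, log2 -2.44). Without the keratin-bearing cells, 37 and 73 cells held 132 and 120 CPM of Mt1, a log2 ratio of -0.13 (-0.87 to 0.65). Melanocyte-like cells (24 and 30) had Mt2 at 730 and 1135 CPM, past 1.5-fold (log2 0.64, 0.23 to 1.06), where 11% of 191 genes with at least 200 UMIs were. Without cells that carried keratinocyte RNA the ratio was 0.08. Langerhans-like cells had Mt1 at 778 and 913 CPM, of which the 5 highest cells held 80.6% and 69.9%. The other antigen-presenting cells had 4072 and 3504 CPM, and 3909 and 2856 CPM without keratin-bearing cells, so their level did not come from those cells alone. For Mt2 in these last 2 classes, leaving out keratin-bearing cells moved the ratio past 1.5-fold. In Langerhans-like cells Mt2 stood at 201 and 247 CPM (log2 0.29, -0.06 to 0.66), and at 147 and 51.2 CPM without keratin-bearing cells (log2 -1.53, -2.23 to -0.86, from 74 and 26 UMIs). In the other antigen-presenting cells it stood at 878 and 876 CPM, and at 261 and 481 CPM without them (log2 0.88, 0.47 to 1.31).

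Counted over classes, Mt1 was higher in the induced library in 8 and lower in 7, with the counting interval above 0 in 7 and below 0 in 6. It passed 1.5-fold upward in 2 classes and downward in 2. Mt2 was higher in 11 and lower in 4, and passed 1.5-fold upward in 2 classes and downward in 3. Of these 9 instances, 4 were the HF-SC-like and sebaceous gland-like values of both genes, 4 were in T cell-like, dermal papilla-like and melanocyte-like cells, whose values moved inside 1.5-fold without keratin-bearing cells (Mt2 in Langerhans-like and other antigen-presenting cells moved past it), and the other was Mt1 in inner bulge-like cells.

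Mt1 and Mt2 moved together across the skin. Over the 30 points of 15 classes in 2 libraries, the Pearson correlation of log2(CPM + 1) was 0.94 for Mt1 with Mt2, the highest for either gene among 10802 genes with at least 200 UMIs. The points share the library and the class gates, so the value is a description. After Mt2, the patterns most like Mt1 belonged to Aldh2 (0.81), the mitochondrial aldehyde dehydrogenase, Smtn (0.79), Irx5 (0.79) and Rnd3 (0.77). Those most like Mt2 after Mt1 belonged to Adk (0.83), an adenosine kinase, Sema3c (0.82), Irx5 (0.79) and Wls (0.78), which carries WNT proteins to the cell surface. Within classes, Spearman correlations of Mt1 with Mt2 over thinned-depth cells ran from 0.24 in dermal papilla-like cells to 0.84 in sebaceous gland-like control cells.

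The UMI ratio of Mt1 to Mt2, which compares captured ends and not levels per length, was not constant. Over all kept cells it was 2.87 and 2.99. It was low in keratinocytes of the epidermis, at 2.35 (2.32 to 2.39) and 2.21 (2.17 to 2.25) in IFE basal-like cells and 2.05 and 2.16 in cycling cells, and lower only in induced T cell-like cells (1.87, from 155 and 83 UMIs). It was highest in upper follicle-like cells, at 4.89 (4.72 to 5.07) and 4.54 (4.38 to 4.71). These intervals overlapped those of control other antigen-presenting cells (4.64, 4.18 to 5.15) and induced inner bulge-like cells (4.49, 4.30 to 4.69). The order IFE basal-like below HF-SC-like below upper follicle-like held in each library.

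**Figure D4:**
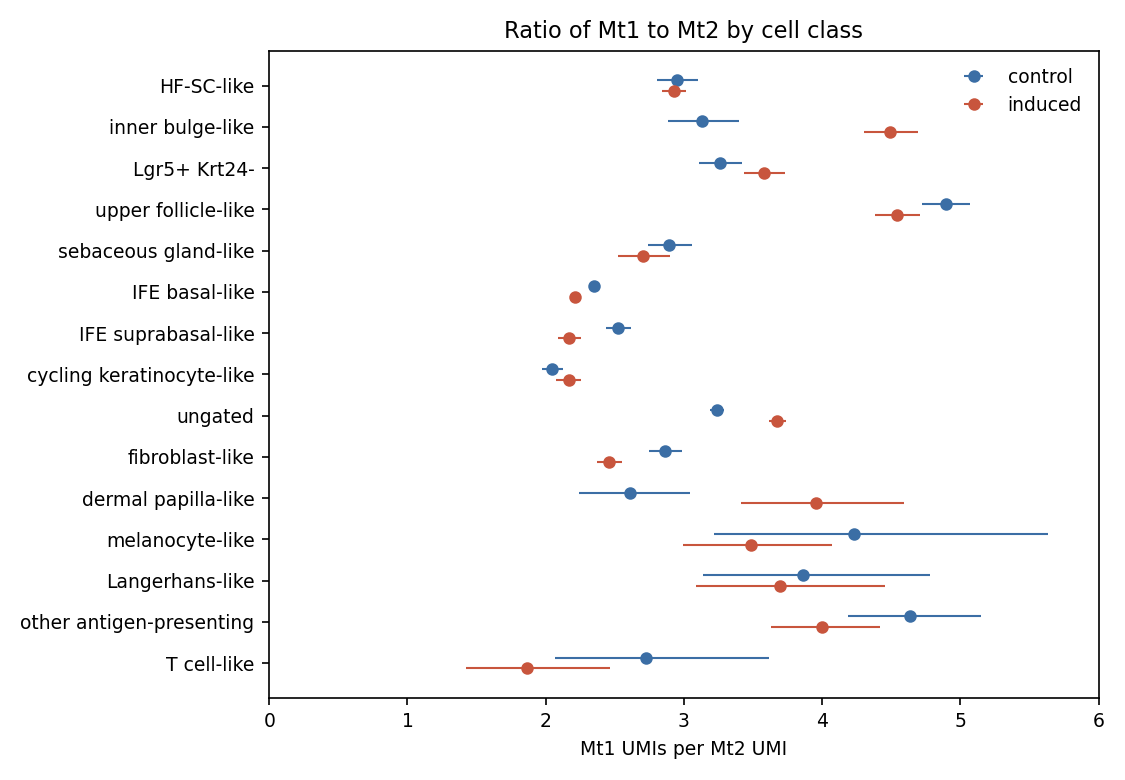
Mt1 UMIs per Mt2 UMI in 15 classes, with 1 point per library and exact 95% intervals as bars (counting error only). IFE basal-like cells lie at 2.35 and 2.21, HF-SC-like cells at 2.95 and 2.92, and upper follicle-like cells at 4.89 and 4.54.

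Mt4 was almost confined to differentiating epidermis. Of its 3124 UMIs in compared and uncompared classes, 2915 (93.3%) lay in IFE suprabasal-like cells, 123 in IFE basal-like cells and 38 in upper follicle-like cells. IFE suprabasal-like cells held 1610 UMIs in 184 control cells and 1305 UMIs in 166 induced cells, or 453 CPM (432 to 476) against 403 CPM (382 to 426), a log2 ratio of -0.17 (-0.28 to -0.06). The share of thinned cells with an Mt4 UMI was 37.5% (30.5% to 44.9%) and 28.3% (21.6% to 35.8%), and 60.9% and 53.01% without thinning. The intervals of both libraries overlapped. The 5 highest cells held 18.9% and 24.4% of the UMIs, so expression was uneven within the class.

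**Figure D5:**
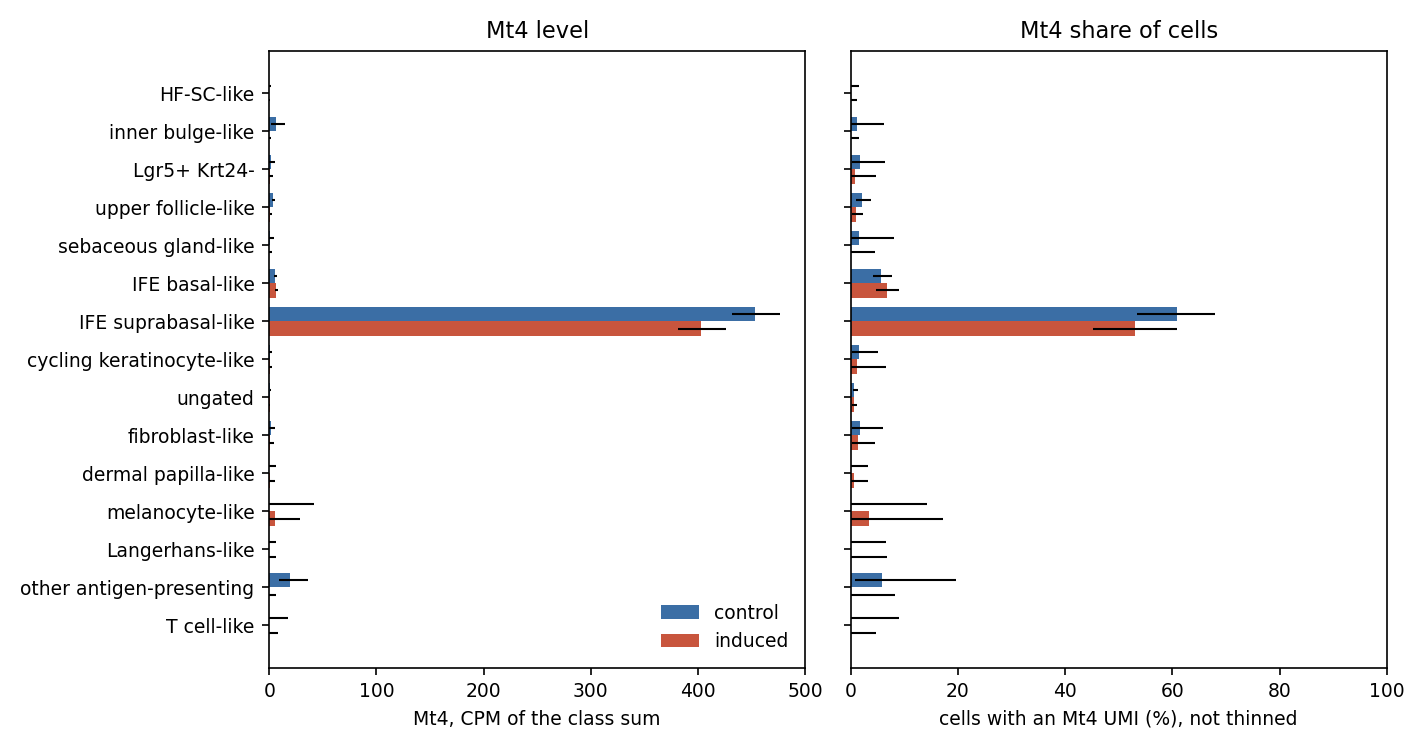
Mt4 level in CPM of the class sum (left) and the percentage of unthinned cells with an Mt4 UMI (right) in 15 classes, with 1 bar per library and exact 95% intervals. IFE suprabasal-like cells stand alone at 453 and 403 CPM and at 60.9% and 53.01% of cells.

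Within IFE suprabasal-like cells Mt4 followed the early differentiation keratins. Cells with a Krt1 UMI whose Krt1 did not exceed Krt10 (159 control, 140 induced) held 507 and 454 CPM of Mt4. Cells with Krt1 above Krt10 (9 and 18) held 186 and 141 CPM, and cells without a Krt1 UMI (16 and 8) held 22.9 and 41.3 CPM, from 6 and 7 UMIs. Across cells (184 and 166, from 1 library each), the Spearman correlation of Mt4 was 0.44 and 0.39 with Krt1 and 0.41 and 0.38 with Krt10. It was -0.44 and -0.33 with Krt14 and -0.16 and -0.07 with Lor, the cornified envelope protein loricrin. With Mt1 it was -0.09 and -0.17, so within this class Mt4 did not track the broad pair. Over the 30 class points the genes most like Mt4 were Serpinb12 (0.87), Skint6 (0.81), Krt78 (0.81), Krt1 (0.81) and Krt10 (0.80), while Mt1 stood at 0.18. Krt1 and Krt10 gate the class that holds Mt4, so their place in this order is not independent of it.

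Elsewhere Mt4 was sparse. Upper follicle-like cells held 30 control and 8 induced UMIs (log2 -1.76, -3.09 to -0.60), of which 26 and 7 lay in cells with at least 10 UMIs of Krt1 and Krt10. In that class 4.63% of 10070 genes were past 1.5-fold downward. Ungated cells held 14 and 6 UMIs (log2 -0.75, -2.42 to 0.72), where 3.53% of 11775 genes were. IFE basal-like cells held 62 and 61 UMIs, or 5.32 and 6.73 CPM (log2 0.34, -0.20 to 0.87). The 10 UMIs of the other antigen-presenting cells all lay in control cells that carried keratinocyte RNA.

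Few genes that sense and carry zinc passed 1.5-fold in HF-SC-like cells. Mtf1, the factor that reads cellular zinc, gave 42 control and 48 induced UMIs (log2 -0.16, -0.79 to 0.47). Slc30a1, a zinc exporter that MTF1 also induces, gave 33 and 44 UMIs (log2 0.06, -0.63 to 0.76). Of 7 zinc sensing and export genes with at least 20 UMIs, none was past 1.5-fold in either direction, against the 12.2% upward and 6.73% downward of all genes, and their median log2 ratio was 0.02 against 0.08 for all genes. Of 10 zinc importers 1, Slc39a14 with 7 and 20 UMIs, was past 1.5-fold upward (median 0.07). Slc39a8, another importer, here singled out after its values were seen, was short of it at 62.9 and 90.4 CPM (log2 0.52, 0.24 to 0.81). Of 8 copper genes 1, Slc31a2, was past it downward (-0.60, median 0.14). At such counts the interval of Slc30a1 held 1.5-fold either way and that of Mtf1 held it downward, so differences of that size were not detectable at this depth.

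Other responses known to drive metallothionein were set beside the same 12.2% of genes upward and 6.73% downward in HF-SC-like cells. Of 10 glucocorticoid response genes 2 were past 1.5-fold upward and none downward, with a median of 0.22. They included Tsc22d3, a classical glucocorticoid target, at 22 and 82 UMIs (log2 1.54, 0.85 to 2.29). Of 10 genes of iron handling and oxidative stress none was past it upward and 1 downward, Hmox1, the heme oxygenase (log2 -1.41). Srxn1, a sulfiredoxin, lay at the line (log2 -0.59 from CPM, just short of it with 0.5 UMIs added). Of 15 dissociation stress genes 2 were past it upward, Hspa1a (log2 0.78), a heat-shock protein, and Socs3 (log2 1.21), an inhibitor of cytokine signalling. Their median was 0.08, as was that of all genes. The part of these genes in the metallothionein difference was not tested.

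In inner bulge-like cells Mtf1 gave 19 and 32 UMIs (log2 -0.57, -1.44 to 0.33) and Slc30a1 8 and 23 (log2 0.20). Of 6 zinc sensing and export genes none was past 1.5-fold upward, and Mtf1 alone was past it downward once 0.5 UMIs were added (log2 -0.59), where 9.65% of all genes were. Slc39a8 was past it upward, at 44.7 and 70.3 CPM (log2 0.65, 0.12 to 1.22). Of 15 dissociation stress genes 4 were past 1.5-fold upward, against 10.9% of all genes, and none downward. They included Atf3 at 702 and 1519 CPM (log2 1.11) and Fos at 575 and 985 CPM (log2 0.78). Of 9 glucocorticoid genes 3 were past it upward and 3 downward, among them Sgk1 (log2 -1.47). In Lgr5+ Krt24- cells, where 15.7% of all genes were past 1.5-fold upward, 7 of 15 such stress genes were, with Fos at 1442 and 3869 CPM (log2 1.42), beside a smaller Mt1 ratio of 0.37. The part of the stress genes in these Mt1 ratios was not tested.

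In sebaceous gland-like cells, against 11.4% of all genes upward and 14.2% downward, dissociation stress genes split. Hspa1a (log2 1.55), Hspa1b (1.503) and Hspa8 (0.94) were higher, and Fos (-1.18), Junb (-1.04), Egr1 (-0.98) and Hspb1 (-1.29) were lower. Of 6 zinc sensing and export genes none was past 1.5-fold upward and 2 downward. Of 9 zinc importers 2 were past it upward, with Slc39a11 at 44.7 and 99.3 CPM (log2 1.15), and 1 downward. Gclc, which makes glutathione, was higher (log2 0.82) and Srxn1 lower (log2 -1.73). Of 9 epidermal differentiation genes 7 were lower and 1, Ivl, higher.

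In IFE suprabasal-like cells, the home of Mt4, 10.4% of 8817 genes were past 1.5-fold upward and 6.05% downward. Of 16 epidermal differentiation genes 3 were higher, Krtdap (3621 and 5531 CPM, log2 0.61), Sbsn (1980 and 3035 CPM, log2 0.62) and the envelope precursor Ivl (20.8 and 80.3 CPM, log2 1.95). A further 3 were lower, all of the late cornified layer, Lor (log2 -0.64), Flg2 (log2 -2.30) and Flg (log2 -3.54, 217 and 17 UMIs). Mt4, at -0.17, moved with neither group. Mtf1 reached its highest control level in this class, at 66.2 and 54.7 CPM (log2 -0.28, -0.57 to 0.01), although Mt1 was lower here than in basal cells. Slc39a8, a zinc importer, was higher in the induced library here (16.3 and 32.4 CPM, log2 0.99), and it was past 1.5-fold upward with at least 100 UMIs in 4 of the 8 classes where it was counted. By the ratio of CPM, Mtf1 was past 1.5-fold upward in none of 12 and downward in 2, and Slc30a1 upward in 1 of 9 and downward in none.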

How the data were processed

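Counts were made by the authors with Cell Ranger (matrix header 3.0.1; their processing notes name mm10) and deposited as raw whole-number UMI counts per gene and barcode. From these, cells were filtered as the study states, classes were set by minimum UMIs of marker genes, and 3 small classes (endothelial-like, mural-like, Schwann-like) were not compared. Doublets were not removed in the main values. UMIs were summed per class and library in Python 3.11.15 with SciPy 1.17.1, pandas 2.3.3 and scanpy 1.11.5. Ratios of CPM carry exact conditional intervals, levels exact Poisson intervals, and shares exact Clopper-Pearson intervals, all at 95%. Median and list ratios added 0.5 UMIs to genes with at least 20 UMIs. Cells were thinned to 2000 UMIs for shares, which left out 52 control and 70 induced cells. A share of 0 allows 3 counts of the total. With 1 library per group, no test was run. The ratio script was checked on simulated counts. The alternative clustering used 2000 variable genes without the metallothioneins, 30 dimensions and resolution 1.

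The members, gene lists, marker rules and alternatives were chosen with earlier results of these data known. List genes were named where they passed 1.5-fold in a class with at least 100 UMIs, with Mtf1 and Slc30a1 named in any case, and for each member the 5 genes with the most similar pattern. Ddit4 and the other list genes under that count enter the counts only, apart from Slc39a14, which was named after its values were seen. Proteins were not used here.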

Additional observations from a re-analysis of the deposited data

Results flagged for a closer look

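Mt1 and Mt2 were higher in the induced HF-SC-like cells (log2 1.10 and 1.12) and lower in the induced sebaceous gland-like cells (log2 -1.04 and -0.95). The counting intervals of all 4 values leave out 0, but each class has 1 library per group, and the difference between the classes was not tested.

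Mt3, the family member of the nervous system, had 18 control and 33 induced UMIs in the Schwann-like cells, in 5 of 14 and 11 of 23 cells, out of 105 Mt3 UMIs in all. HF-SC-like, sebaceous gland-like and T cell-like cells had none. The highest Mt1 level of any class was in the mural-like cells, the contractile cells of small vessels, at 12842 CPM in 8 control cells and 10001 CPM in 6 induced cells, too few to be compared.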

How the results depend on the processing

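Over 349 alternative values of 34 log2 ratios, 196 stayed within the spread of counting. The sign was other than reported in 42, 9 of them for values past 1.5-fold and 33 for values short of it. For Mt1 and Mt2 in HF-SC-like cells every alternative run stayed past 1.5-fold upward. Mt1 there was 1.33 with under 5% mitochondrial UMIs, 1.04 with size factors (also 1.04 for the median of the family), 1.23 without the 5 highest cells and 1.23 by clusters. Mt2 was 1.48, 1.22 without the 5 highest cells, 1.02 with doubled marker minimums and 0.93 by Cd34 and Krt15. In sebaceous gland-like cells Mt1 was -3.34 and Mt2 -2.62 with under 5% mitochondrial UMIs (6 and 7 cells), -0.54 and -0.35 over all barcodes, -1.22 and -0.71 thinned, -1.22 and -1.21 without the 5 highest cells, -0.86 and -0.75 by clusters, and -1.18 and -1.21 without cells rich in Krtdap and Sbsn, and Mt1 was -0.95 with doubled minimums.

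The values past 1.5-fold that changed sign were Mt1 in T cell-like cells (2.46 with under 5% mitochondrial UMIs, 0.14 by clusters), Mt2 in T cell-like cells (3.50 and, without the 5 highest cells, 0.26), Mt2 in dermal papilla-like cells (0.053 without the 5 highest cells, 0.37 without keratin-bearing cells), Mt4 in upper follicle-like cells (0.053 by clusters) and Mt4 in ungated cells (0.29 over all barcodes, 0.51 by clusters). Of the values short of 1.5-fold, Mt1 in dermal papilla-like cells (reported at -0.24) was above 0 in 7 of 11 alternatives, up to 0.57 without keratin-bearing cells. Without those cells Mt2 was -1.53 in Langerhans-like and 0.88 in other antigen-presenting cells, while Mt2 in inner bulge-like cells was -0.051 with under 5% mitochondrial UMIs and Mt1 in Langerhans-like cells was -0.11 over all barcodes. The other results with such values were Mt1 or Mt2 in upper follicle-like, fibroblast-like and IFE basal-like cells, all reported within 0.13 of 0. The cause was not tested. Mt4 in IFE suprabasal-like cells kept its direction, at -0.30 with under 5% mitochondrial UMIs and over all barcodes, -0.33 as a mean over cells and -0.39 thinned, and its share of cells was 60.9% and 53.01% without thinning.

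Classes past 1.5-fold upward for Mt1 were 4 in place of 2 with under 5% mitochondrial UMIs or without the 5 highest cells, and 1 at 2-fold. Downward they were 1 in place of 2 under either of these, over all barcodes, without high doublet scores, by clusters and without keratin-bearing cells. For Mt2 they were 4 in place of 2 upward with under 5% mitochondrial UMIs or without high doublet scores and 1 at 2-fold, and 1 in place of 3 downward with under 5% mitochondrial UMIs, over all barcodes, without high doublet scores and by clusters, and 0 at 2-fold. For Mt4 they were 1 in place of 0 upward when thinned, and downward 1 in place of 2 over all barcodes, without the 5 highest cells and at 2-fold, and 0 when thinned or by clusters. The order of classes correlated with the reported one at 0.90 for Mt1 by clusters, and for Mt4 at 0.58 with under 5% mitochondrial UMIs, 0.79 over all barcodes, 0.82 without high doublet scores and 0.77 by clusters. The control Mt1 to Mt2 ratio was 2.30 with doubled minimums and 2.28 by clusters in IFE basal-like cells, and 5.22 with under 5% mitochondrial UMIs in upper follicle-like cells.

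Size factors shifted all genes by over 0.1 on the log2 scale only in melanocyte-like (0.19) and dermal papilla-like (0.10) cells. The 3 alternatives that leave out keratin-bearing cells or Krtdap- and Sbsn-rich cells, or set HF-SC-like cells by Cd34 and Krt15, were chosen after seeing the data. No paired analysis was possible because each group has 1 library. Depth limits Mt4 outside the suprabasal class, Mtf1 and Slc30a1, where ratios rest on few UMIs, and 119 of 562 HF-SC-like cells would leave the class at doubled minimums.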

Other observations

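Mt1 and Mt2 were also read in classes too small to compare. Endothelial-like cells (5 control, 15 induced) held Mt1 at 2748 and 4594 CPM and Mt2 at 1145 and 1834 CPM. Schwann-like cells (14 and 23) held Mt1 at 2948 and 4642 CPM and Mt2 at 751 and 962 CPM. Mural-like cells held Mt2 at 2738 and 1151 CPM beside their high Mt1, and none of these classes held an Mt4 UMI. Mt3 had 27 UMIs in 2 induced Langerhans-like cells and none in the 55 control ones.

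Tsc22d3 was past 1.5-fold upward in 9 of the 14 classes in which it was counted, 6 of them with at least 100 UMIs. It was past it downward in 1, the inner bulge-like cells (log2 -1.44, -2.70 to -0.19), where Mt1 was higher and 9.65% of all genes were past it downward. Socs3 was past 1.5-fold upward in 7 of 15 classes, 6 of them with at least 100 UMIs, and downward in none. The share of all genes past it upward ran from 6.73% in upper follicle-like cells to 20.7% in T cell-like cells. Within upper follicle-like cells, 1 cluster of 46 control and 35 induced cells had Mt1 at 5431 and 7922 CPM, against 341 and 447 CPM in the lowest cluster of the same class.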
